A study of Homo sapiens and Mus musculus with 24 samples.

Results

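Chromatin at 7 genes of erythropoietin signalling and red cell survival was described from lists of peaks made from fetal liver of mouse embryos at day 14.5. The genes were Epor, Jak2, Stat5b, Stat5a, Cish, Pim1 and Bcl2l1, and they lay in 6 windows, with Stat5b and Stat5a sharing 1 window. Every peak of 12 lists that overlapped a window was taken, which gave 743 of 564660 peaks. The 12 lists came from 4 groups with 2 libraries and 1 group list each. The groups were BRG1 immunoprecipitates from hemogen knockout (KO) livers, BRG1 immunoprecipitates from wild-type (WT) livers, hemogen immunoprecipitates from livers labelled WT, and immunoprecipitates of acetylated histone H3 lysine 27 (H3K27ac) from WT livers. Hemogen was precipitated through an HA tag whose origin the labels leave unsaid, and no HA control without the tag entered the comparisons. The sample titles name no hemogen or H3K27ac library from KO liver. Inputs of both genotypes and human K562 libraries were not analysed here. No label ties the libraries of a group to separate animals, so a spread between libraries may be technical. Whole fetal liver holds hepatocytes and other cells beside erythroid ones, and the labelled tissue was not checked against marker genes because a mouse annotation was not used here.

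Erythropoietin binds its receptor Epor on erythroid progenitors and activates the receptor-bound tyrosine kinase Jak2, which phosphorylates the transcription factors Stat5a and Stat5b. Stat5 induces Cish, which damps the signal, and the survival genes Pim1 and Bcl2l1; in the fetal liver this pathway keeps committed progenitors alive. Hemogen is found in the nuclei of blood-forming cells. BRG1 is the motor subunit of SWI/SNF complexes, which move nucleosomes, and H3K27ac is the histone mark of active regulatory DNA.

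In all, libraries 1 and 2 had 3209 and 5602 BRG1 peaks in KO, and 26330 and 21167 in WT. Hemogen lists held 53063 and 42871 peaks, and H3K27ac lists 69883 and 45548. Depth of the immunoprecipitate, recovered from the authors' values and divided by that of WT BRG1 library 1, was 0.406 and 0.342 in the KO libraries and 1.04 in WT library 2. A position without a KO peak is therefore not shown to lack BRG1.

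All 6 windows held BRG1, hemogen and H3K27ac in WT liver. The windows held 8 and 10 peaks of KO BRG1 libraries 1 and 2, 49 and 38 of the WT BRG1 libraries, 65 and 57 of the hemogen libraries, and 103 and 77 of the H3K27ac libraries. Merging the peaks of all 12 lists gave 154 separate stretches. In every window but that of Cish, 1 stretch held a peak of all 8 libraries. H3K27ac lists alone had peaks in 72 stretches, hemogen lists alone in 30, and KO BRG1 lists alone in 0. Of the 154 stretches, 63 held peaks of group lists only. The lists differ in length, and stretches were not counted over the genome. These counts are therefore not shown to be particular to the windows.

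**Figure D1:**
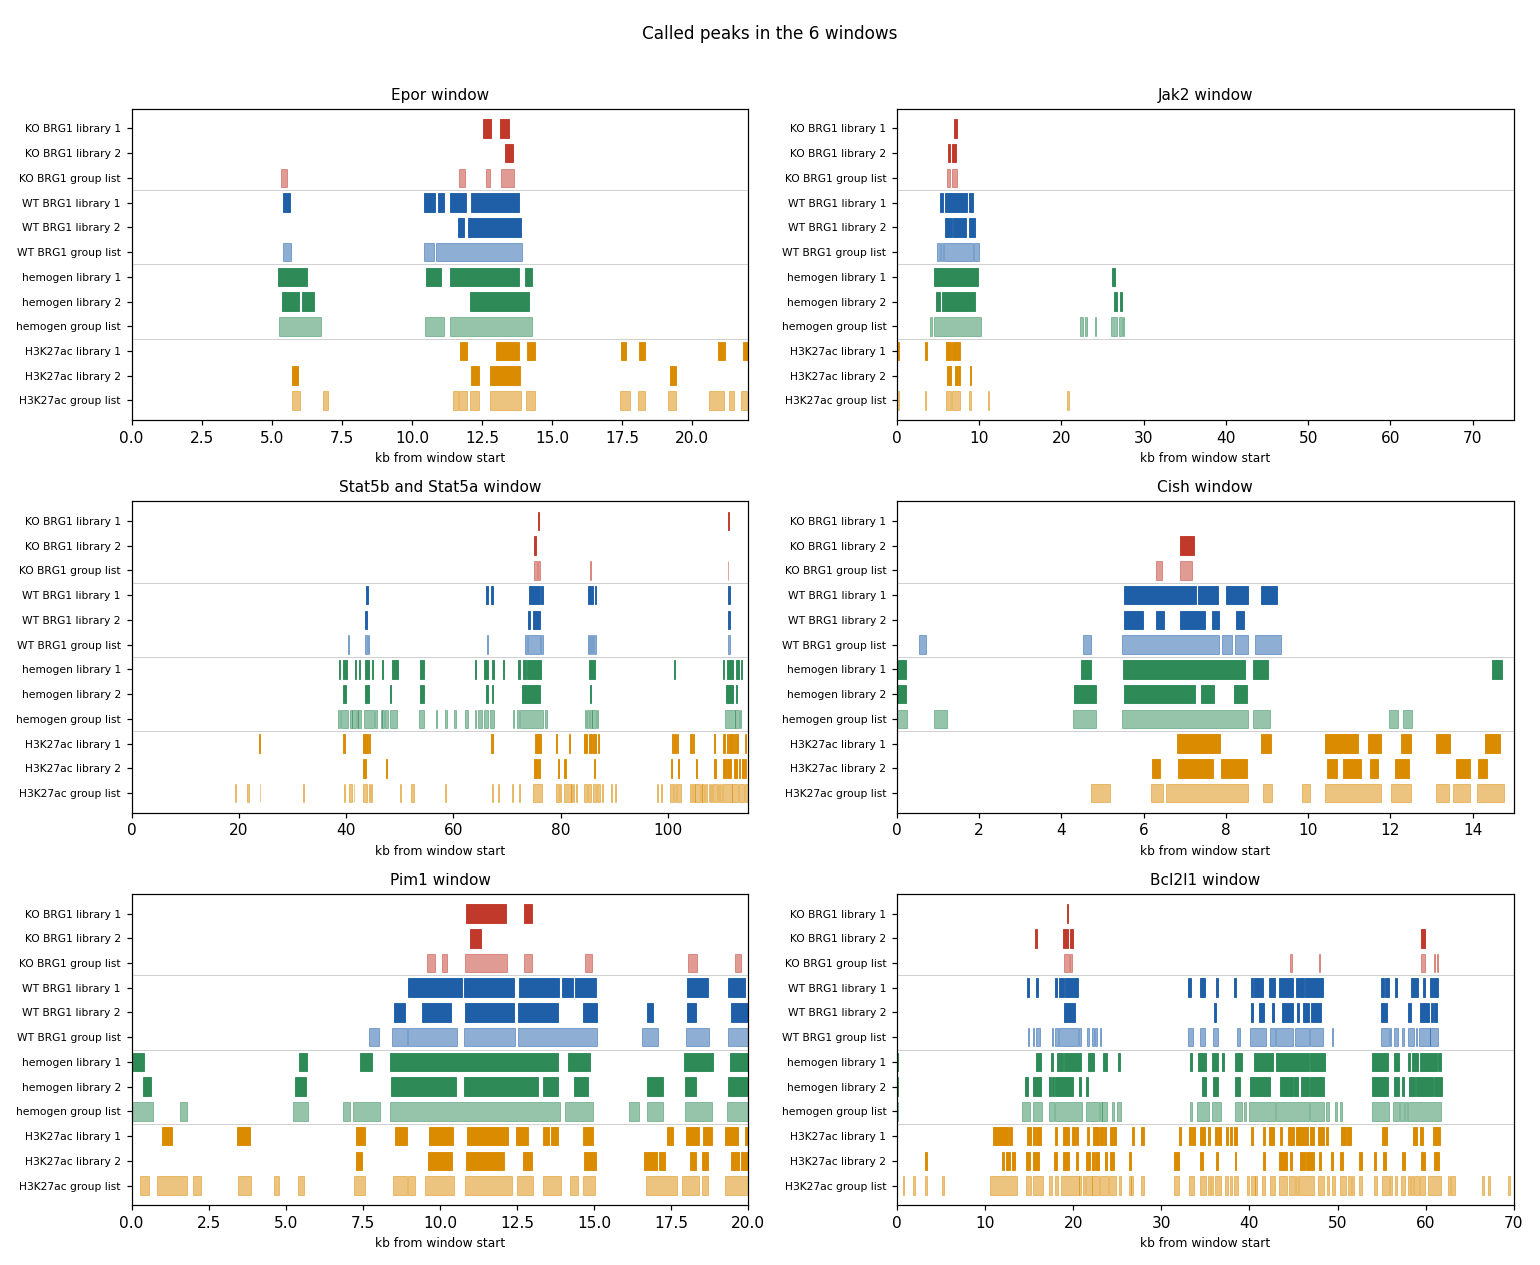
Positions of called peaks in the 6 windows, in kb from the start of each window; each row is 1 list, with KO BRG1 at the top, then WT BRG1, hemogen and H3K27ac, and pale bars are group lists. KO BRG1 peaks numbered 8, 10 and 26 in the 3 KO lists, and all of them lay at WT BRG1 peaks.

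A region below is a stretch of merged peaks that holds a peak of both libraries of a group. Its strength is a percentile, from 0 to 100, of the authors' −log10 p, averaged over both library lists, and higher is stronger. The windows held 4 KO BRG1, 26 WT BRG1, 38 hemogen and 49 H3K27ac regions. Of the 26 WT BRG1 regions, 17 (65.4%) overlapped a peak of at least 1 of the 3 KO lists, against 55.3% of the 13213 WT BRG1 regions of the genome. The exact (Clopper-Pearson) 95% interval of the share, over regions and for counting error only, ran from 44.3% to 82.8% and includes the share of the genome. The share in the windows therefore cannot be told from that of other BRG1 regions. A fold below is the authors' own fold enrichment over local background at the strongest peak touching a region. Such folds rank peaks within a list only, so KO and WT folds printed side by side do not measure a change in BRG1. The strongest peaks of different lists may also have different summits.

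Epor encodes the receptor itself. Its window, chromosome 9 from 21950000 to 21972000, held 51 peaks in 9 stretches. The main BRG1 region lay from 21962003 to 21963895, with a WT strength of 96.3, rank 548 of 13213. At this site the fold was 6.15 and 3.43 in KO libraries 1 and 2 and 4.86 in the KO group list, against 6.89 and 5.76 in WT libraries 1 and 2. Both KO libraries thus had a peak at this site. They shared the stretch from 21963158 to 21963590, and its KO strength of 60.6 was rank 678 of 1543 KO regions. Hemogen had folds of 6.37 and 4.62 and H3K27ac of 5.43 and 6.02 at the same region. This was the single H3K27ac region of the window. A weaker WT BRG1 region from 21961353 to 21961944 (strength 26.1) had a KO peak in the group list only, with a fold of 3.87. The other hemogen region, from 21955228 to 21956521, was well above the genome median of 65.1 with a strength of 81.7, but it overlapped neither a WT BRG1 region nor an H3K27ac region. Some lists did have peaks there. For BRG1 these were WT library 1 (fold 3.87) and the WT and KO group lists (3.35 and 4.10). For H3K27ac they were library 2 (4.61) and the group list (3.93).

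Jak2, the kinase that carries the signal from the receptor, had the strongest KO BRG1 region of the 6 windows. The Jak2 window, chromosome 19 from 29245000 to 29320000, held 44 peaks in 12 stretches. Its main WT BRG1 region ran from 29250796 to 29253503, with a strength of 98.8, rank 138 of 13213. The fold was 6.16 and 5.76 in KO libraries 1 and 2, against 7.74 and 8.25 in the WT libraries. The 8.25 came from a WT library 2 peak with its summit at 29251210, away from the KO peaks. At the KO peaks, the WT library 2 fold was 6.73. The KO region inside this main WT region, from 29251754 to 29252249, had rank 13 of the 1543 KO regions. In that stretch the BRG1 summit stood on 53 and 38 recovered fragments in the KO libraries, and on 52 and 54 in the WT libraries, whose immunoprecipitates were deeper. Just beside it, a WT BRG1 region from 29253711 to 29254501 with a strength of 79.7 overlapped no KO list. Over the genome, 69.9% of WT BRG1 regions in the same decile of strength were called in a KO list. The region called in the KO overlapped both H3K27ac regions of the window. Its uncalled neighbour overlapped neither, although H3K27ac library 2 had a peak there with a fold of 3.44. A single hemogen region, from 29249512 to 29254908, spanned both BRG1 regions, with folds of 7.28 and 5.85. The second hemogen region, from 29271174 to 29271757, was weaker (strength 47.4) and held no BRG1 or H3K27ac region.

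Stat5b and Stat5a encode the transcription factors that Jak2 activates. The window that holds both, chromosome 11 from 100775000 to 100890000, was the widest and held 194 peaks in 62 stretches, yet only 3 WT BRG1 regions. It held 9 hemogen and 10 H3K27ac regions. The strongest WT BRG1 region ran from 100848988 to 100851162, with a strength of 89.1, rank 1881. The fold was 4.54 and 4.10 in KO libraries 1 and 2, against 5.75 and 5.15 in the WT libraries. Both KO libraries had a peak there, but these did not overlap each other, so the window held 0 KO regions. A region from 100886237 to 100886626 was weak in WT (strength 23.8, folds 2.51 and 3.93), and had a fold of 4.50 in KO library 1 and 4.41 in the KO group list. The peak of KO library 1 was also weak within its own list, with rank 2406 of 3209, and KO library 2 had no peak there. The third, from 100818581 to 100819092 (strength 22.9), overlapped no KO list. All 3 overlapped hemogen and H3K27ac regions, against 96.6% and 63.9% of all WT BRG1 regions. Of the 9 hemogen regions, 5 overlapped neither BRG1 nor H3K27ac regions, against 48.9% of all hemogen regions. Of the 10 H3K27ac regions, 6 overlapped neither BRG1 nor hemogen regions, against 50.1% of all H3K27ac regions.

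Cish encodes an SH2-domain protein of the SOCS family that is induced by Stat5 and feeds back on the receptor. Its window, chromosome 9 from 107290000 to 107305000, held 61 peaks in 12 stretches. The stronger of its 2 WT BRG1 regions, from 107295518 to 107297829, had a strength of 83.8 and rank 2868, the lowest rank of the leading regions of the 6 windows. KO library 1 had no peak in the whole window. KO library 2 had a fold of 6.20 at this region and the KO group list 2.96, against 5.30 and 5.14 in the WT libraries. The call at Cish therefore rested on 1 KO library and the group list. The second WT BRG1 region, from 107298002 to 107298543 (strength 35.3), overlapped no KO list. Hemogen had folds of 3.60 and 6.13 at the stronger region, and H3K27ac 5.85 and 4.45. Of the 5 H3K27ac regions, 4 lay beyond it, between 107300401 and 107304669, and overlapped neither BRG1 nor hemogen regions. The share with neither was 50.1% among all H3K27ac regions.

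Pim1 encodes a serine/threonine kinase that promotes survival and growth downstream of Stat5. Its window, chromosome 17 from 29480000 to 29500000, was densely covered, with 106 peaks in 13 stretches, the longest of 6733 bp. All 6 of its WT BRG1 regions overlapped a KO list, against 55.3% of all WT BRG1 regions. However, 3 of the 6 were in the strongest decile in WT, where 91.6% were called over the genome. The 6 also all overlapped hemogen and H3K27ac regions, against 96.6% and 63.9% of all WT BRG1 regions. The strongest, from 29490770 to 29492404, had a strength of 99.3 and rank 76 of 13213, the highest WT BRG1 rank in the 6 windows. The fold was 5.58 and 4.51 in KO libraries 1 and 2, against 7.19 and 8.29 in the WT libraries. Its KO region, from 29490858 to 29492148, had rank 40 of 1543. The region from 29492515 to 29493872 had a peak in KO library 1 (fold 5.15) and the region from 29499339 to 29503574, which runs past the window, in KO library 2 (fold 4.36). That KO library 2 peak, with its summit at 29500566, lay outside the window and is not among the peaks counted for it. The other 3 were called in the KO group list only, at folds of 2.75 to 3.45. One of these, from 29488970 to 29490715, was in the strongest decile in WT, with a strength of 94.8 and folds of 6.46 and 6.12. It also overlapped the strongest H3K27ac region of the window, which had rank 483 of 25305.

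Bcl2l1 encodes Bcl-xL, the protein that blocks mitochondrial cell death in maturing erythroblasts. Its window, chromosome 2 from 152770000 to 152840000, held the most peaks, 287 in 46 stretches, and the most regions of BRG1 (11), hemogen (16) and H3K27ac (22) in WT liver. The WT BRG1 regions fell into 3 clusters there, grouped by position after the data were seen. The first was a single strong region from 152788434 to 152790498, with a WT strength of 98.1 and rank 226. The fold at this region was 3.44 and 2.94 in KO libraries 1 and 2 and 4.48 in the KO group list, against 6.18 and 5.98 in the WT libraries. The KO region inside it, from 152788819 to 152789443, was near the weak end of the KO regions with rank 1492 of 1543. That rank rests on the 2 KO library lists. In the KO group list, the peak at this site had rank 892 of 13938. The H3K27ac region with the highest strength in the window, from 152830877 to 152831634, had rank 182 of 25305 and lay in the third cluster.

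The second cluster, singled out after its values were seen, held the strongest hemogen region of all 6 windows. It ran from 152813027 to 152816756 and had rank 22 of the 25631 hemogen regions of the genome. Its leading peak had rank 11 of 53063 in hemogen library 1 and 113 of 42871 in library 2, with folds of 12.7 and 9.82. The neighbouring hemogen regions, from 152810066 to 152812678 and from 152816858 to 152818546, had strengths of 98.7 and 96.8. Across these 3 hemogen regions lay 6 WT BRG1 regions with strengths of 8.72 to 86.9, and none of the 6 had a peak in KO library 1 or 2, as was the case for 64.7% of all WT BRG1 regions and for 16 of the 26 (61.5%) in the windows. The strongest of the 6, from 152813362 to 152814906, was in the KO group list (fold 4.75), and so was the region from 152816318 to 152818361 (fold 2.96). The other 4 overlapped no KO list. The stronger of them were the region from 152810537 to 152811675, with a strength of 69.3 and WT folds of 6.31 and 3.98, and the region from 152815238 to 152816292, with a strength of 76.5 and WT folds of 5.49 and 4.30. Over the genome, 54.3% and 64.2% of the WT BRG1 regions in the strength deciles of these 2 regions were called in a KO list. The weaker pair lay from 152810137 to 152810443 (strength 8.72) and from 152812267 to 152812879 (strength 34.2). 

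The third cluster held 4 WT BRG1 regions between 152824885 and 152831395. The region from 152829332 to 152830408 had a peak in KO library 2 (fold 4.13), and the region from 152830512 to 152831395 had one in the KO group list only (fold 3.37). The regions from 152824885 to 152825836 (strength 55.4) and from 152827970 to 152829105 (strength 43.9) overlapped no KO list. In the whole Bcl2l1 window, 5 of 11 WT BRG1 regions overlapped a KO list and 6 did not, where 55.3% of all WT BRG1 regions were called. With so few regions this count cannot be told from that share.

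Fewer BRG1 peaks were called per KO library than per WT library in 5 of the 6 windows, with no overlap between the groups. The same held for the genome as a whole, with 3205 and 5592 KO peaks against 26329 and 21165 WT peaks on the chromosomes used. Other windows of the genome were not counted, so this is not shown to be particular to these genes. At Bcl2l1 there were 1 and 4 peaks in the KO libraries, against 21 and 15 in the WT libraries, or 2.5 ± 2.12 in KO and 18 ± 4.24 in WT (SD, n = 2 libraries each). At Pim1 there were 2 and 1 in the KO libraries, against 8 and 8 in the WT libraries. At Cish there were 0 and 1 in the KO libraries, against 4 and 5 in the WT libraries. In each of these windows the highest KO count was below the lowest WT count. The Stat5b and Stat5a window had 2 and 1 peaks in the KO libraries and 8 and 5 in the WT libraries. The Jak2 window had 1 and 2 in the KO libraries and 3 and 3 in the WT libraries. Epor was the exception: KO library 1 had as many peaks, 2, as WT library 2, with 1 in KO library 2 and 5 in WT library 1. The difference between the group means, KO minus WT, was -15.5 peaks at Bcl2l1, -6.5 at Pim1, -5 at the Stat5 genes, -4 at Cish, -2 at Epor and -1.5 at Jak2 (n = 2 libraries each). An exact two-sided permutation test gave p = 0.667 for Epor and p = 0.333 for the other windows, or 0.667 and 0.4 after Benjamini-Hochberg adjustment over the 6 windows. A p of 0.333 is the smallest that 2 against 2 libraries allow. The whole lists differed in the same direction, and so did depth; their part in these differences was not tested. With the BRG1 library lists trimmed to their strongest 3205 peaks, the difference was 0 at Epor and 0.5 at both the Stat5 genes and Cish, and it was -0.5 at Jak2, -1 at Bcl2l1 and -2.5 at Pim1.

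**Figure D2:**
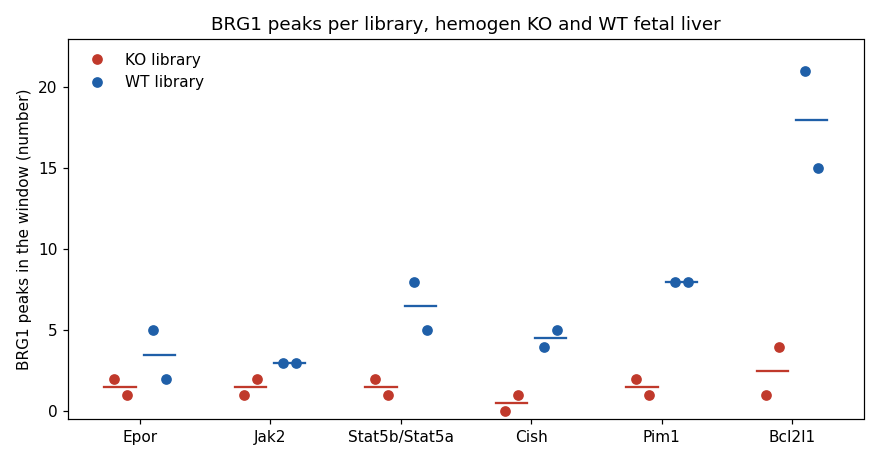
Number of BRG1 peaks in each window, KO libraries at the left and WT libraries at the right of each pair; points are libraries (n = 2 per group) and lines are group means. The groups overlap at Epor, and the gap is widest at Bcl2l1, with 1 and 4 peaks in KO and 21 and 15 in WT.

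The length covered by BRG1 peaks in the group lists was also lower in the KO, by about as much as elsewhere. The KO group list covered 8323 bp of the 6 windows and the WT group list 45133 bp, so the KO length was 18.4% of the WT length, against 19.6% over the genome. By window this share was 32.6% at Pim1, 28.7% at Epor, 21.2% at the Stat5 genes, 19.7% at Jak2, 11.1% at Cish and 10.4% at Bcl2l1. Of the 62 WT group peaks of the windows, 17 (27.4%) overlapped a KO group peak, against 24.6% of all WT group peaks. All 26 KO group peaks overlapped a WT group peak, against 88.4% over the genome. The 8 and 10 KO peaks in libraries 1 and 2 all lay at a WT BRG1 peak of some list, against 98.0% and 95.9% over the genome.

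The 2 KO library lists each held fewer of these regions than the KO group list. KO library 1 held a peak at 7 of the 26 WT BRG1 regions (26.9%, against 18.4% of all WT BRG1 regions). KO library 2 held a peak at 8 (30.8%, against 28.9%), and both libraries did at 5 (19.2%, against 12.1%). These 5 were the leading BRG1 regions of the Epor, Jak2, Stat5, Pim1 and Bcl2l1 windows. The KO group list held a peak at 17 (65.4%, against 53.6%), the same number as for any KO list. A peak in the group list but in neither library was found at 7 of the 26 (26.9%), against 20% of all WT BRG1 regions.

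Regions called in the KO were stronger in WT than those that were not, as over the genome. The 17 called regions had a median WT strength of 85.2 (range 23.8 to 99.3), and the 9 uncalled ones 43.9 (8.72 to 79.7). Over the genome these medians were 74.3 and 50.1. Over the genome, 91.6% of the decile with the highest WT strength had a KO call. All 6 regions of the windows in that decile were called, 1 each at Epor, Jak2 and Bcl2l1 and 3 at Pim1.

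**Figure D3:**
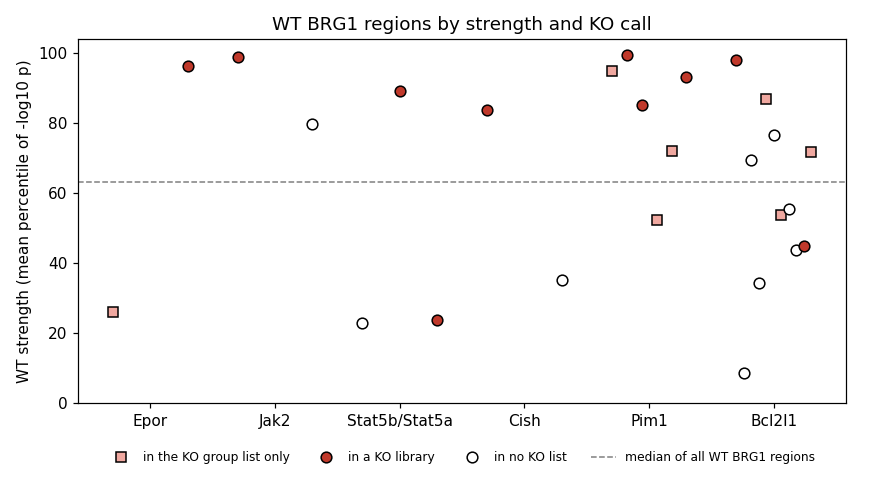
WT strength of the 26 WT BRG1 regions, by window and in order of position, marked by whether a KO library, only the KO group list or no KO list had a peak there; the dashed line is the genome median of 63.1. The uncalled regions lie between 8.72 and 79.7, below all 6 regions of the strongest decile.

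Where a KO library had a peak, its summit was high relative to the background of that library. Summit height and local background were worked back from each peak's fold and p-value, and given as multiples of the lowest background of the list; this was added after the data were seen and rests on an assumed formula of the caller. Over the 7 regions with values in library 1 of both genotypes, the median relative height was 35.0 in KO and 19.4 in WT, and KO was higher at 7 of 7. In library 2 it was 31.0 in KO and 15.6 in WT, and KO was higher at 7 of 7. This was so over the genome too, where KO was higher at 99.9% of 2298 regions in library 1 and at 99.9% of 3728 in library 2. Local background was higher in KO too, with medians of 5.34 in KO and 2.54 in WT in library 1, and of 7.92 in KO and 2.12 in WT in library 2. Over the genome it was higher in KO at 2184 of 2298 regions in library 1 and at 93.3% in library 2. These regions were selected by a KO call. The lowest relative height that was called at all was 12 and 10.7 in the KO libraries, against 4.48 and 4.58 in the WT libraries. The difference thus ran through the whole lists and was not particular to these genes; its cause was not tested.

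**Figure D4:**
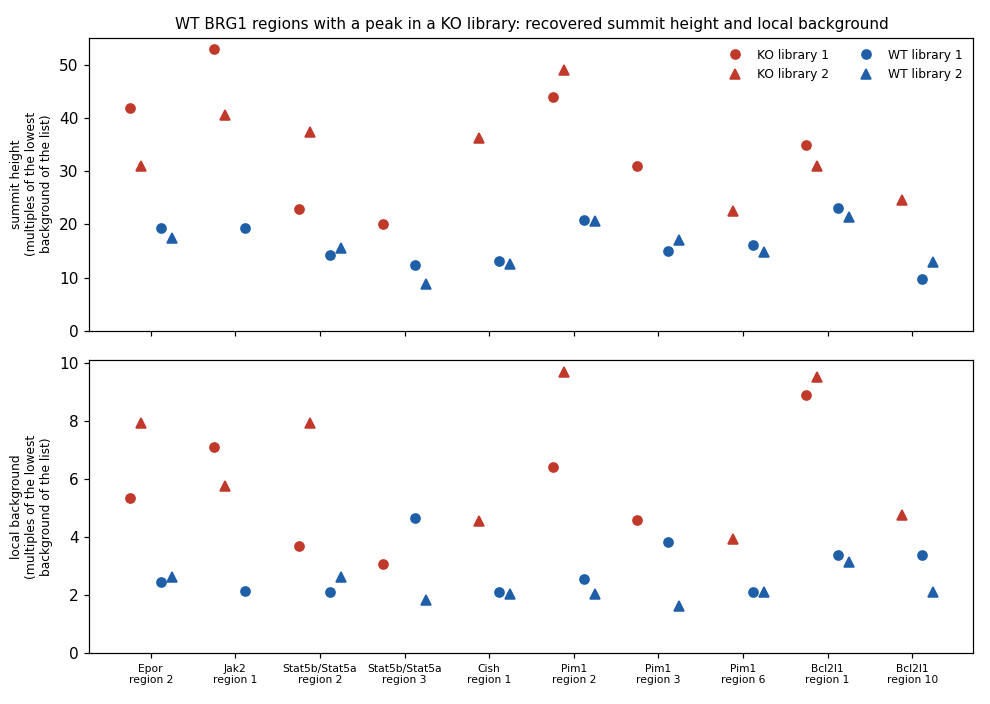
Recovered summit height (top) and local background (bottom), in multiples of the lowest background of each list, at the 10 WT BRG1 regions with a peak in a KO library; KO libraries stand left of WT libraries, and regions are numbered by position in each window. KO heights reach 53.0 at Jak2, and WT heights lie at or below 23.1.

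Distances between summits were measured at the WT BRG1 regions, from the strongest peak of each list that touched a region. Such a summit can lie outside the region where a peak is broad. The sets of regions also differ between the comparisons, so their medians are not like measures. The summits of KO and WT library 1 were a median of 94 bp apart over 7 regions (5 to 1076 bp), and 5 of these lay within 200 bp. For library 2 the median was 110 bp over 8 regions (11 to 757 bp), with 6 within 200 bp. Between the KO and WT group lists it was 319 bp over 17 regions (8 to 1931 bp), with 7 within 200 bp. These 17 include 7 regions without a peak in a KO library. The 1931 bp arose at the Pim1 region from 29494369 to 29495102, where the WT group summit lay outside, at 29492819. The 2 WT libraries were themselves a median of 113.5 bp apart over 26 regions (3 to 2915 bp). Hemogen summits lay at medians of 341 and 413 bp from BRG1 summits in libraries 1 and 2 (25 regions each), and H3K27ac summits at 188 bp (24 regions) and 235.5 bp (22 regions). Some hemogen summits lay outside the BRG1 region. At the Pim1 region from 29492515 to 29493872, that of hemogen library 1 lay at 29490124, 2768 bp away.

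All 26 WT BRG1 regions overlapped a hemogen region, as did 96.6% over the genome. H3K27ac regions overlapped 20 of the 26 (76.9%, exact 95% interval 56.4% to 91.0%), against 63.9% over the genome. The 6 without H3K27ac were 3 at Bcl2l1 and 1 each at Epor, Jak2 and Cish. Of these 6, the Epor region alone was in a KO list, the group list. The share called among all WT BRG1 regions without H3K27ac was not counted over the genome. Some uncalled regions, in the Stat5 and Bcl2l1 windows, did overlap H3K27ac. All 10 regions with a peak in a KO library overlapped H3K27ac, against 87% of such regions over the genome. Of the KO peaks themselves, all 8 of library 1, 9 of 10 of library 2 and 21 of 26 of the group list lay at an H3K27ac region. Among all KO peaks of the genome, the shares in these lists were 84.3%, 77.8% and 67.3%.

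Seen from hemogen, 17 of the 38 hemogen regions (44.7%) overlapped a WT BRG1 region, against 41.6% over the genome. H3K27ac overlapped 24 (63.2%, exact 95% interval 46.0% to 78.2%), against 39.8%. This interval is for counting error only, and neighbouring regions may not be independent. Bcl2l1 gave 13 of the 24, from its 16 hemogen regions. The others were 1 of 2 at Epor and at Jak2, 4 of 9 in the Stat5 window, 1 of 3 at Cish and 4 of 6 at Pim1. H3K27ac regions overlapped hemogen in 33 of 49 cases (67.3%, against 49% over the genome) and BRG1 in 25 (51.0%, against 37.2%). The hemogen regions with BRG1 had a median strength of 93.9 and a median width of 2613 bp. Those without BRG1 had a median strength of 47.5 and a width of 584 bp. The corresponding genome medians of strength were 83.6 and 51.1. Of the 21 hemogen regions without a WT BRG1 region, 13 touched a WT BRG1 peak of some list and 8 touched none. This split was not counted over the genome, so it is not shown to be unusual. Hemogen regions with H3K27ac but no BRG1 region numbered 8 (21.1%, against 9.41% over the genome), of which 7 lay at Bcl2l1. Those with neither numbered 13 (34.2%, against 48.9%), of which 5 lay in the Stat5 window.

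**Figure D5:**
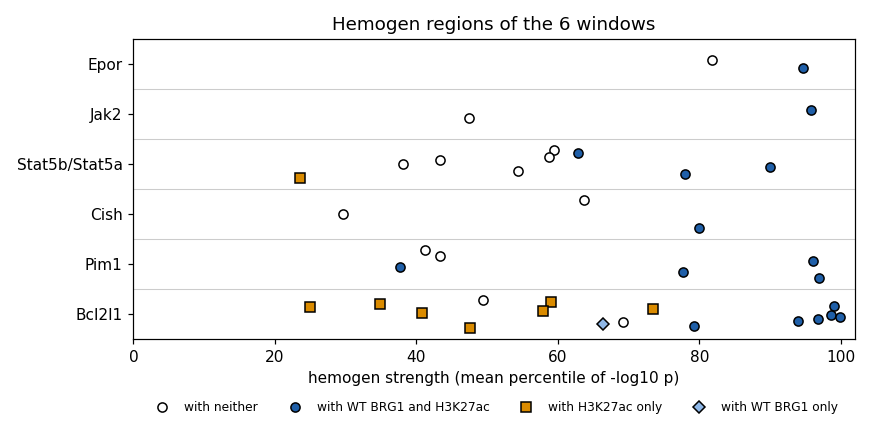
Strength of the 38 hemogen regions by window, marked by overlap with WT BRG1 and H3K27ac regions; points in a row are spread vertically by position only. The 16 regions with both reach 99.9 at Bcl2l1, and the 13 with neither lie between 29.7 and 81.7.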

How the data were processed

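ChIP-seq of mouse fetal liver was analysed from peak lists. Per the submitters' processing notes, MACS2 2.2.7.1, Picard 2.21.4, SAMtools 1.9 and Bowtie2 2.3.5 were used, without stated roles; the sources used here give neither the genome build nor the control of each call. The windows are mm10 positions, whose use assumes that build. Lists of 8 libraries and 4 groups were deposited. For each peak the authors gave the ratio over local background (fold enrichment) together with the p-value and q-value as −log10. How group lists were made is not stated there.

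Groups and replicate numbers came from sample titles. Peak names inside the hemogen lists carry the numbers 3 and 4 where the titles have 1 and 2, so which hemogen library a printed number stands for rests on the deposited link of file to sample. Sequences other than the 19 autosomes and chromosome X were left out, and positions are 1-based. Lists overlapped where they shared at least 1 bp. Peak numbers were compared by an exact two-sided permutation test with Benjamini-Hochberg adjustment; shares were set beside the genome's. Summit fragments and depth were recovered by reading p as an upper Poisson tail and fold as height plus 1 over background plus 1, with whole multiples of 1 scale per list accepted within 0.01, from at most 6000 peaks per list. For depth, the smallest background of a list was divided by the length of its shortest peak and by its scale. This takes the shortest peak as the fragment length. Overlaps and the recovery of summit fragments were checked on simulated data, but the recovered depth was not.

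Described in full were the strongest WT BRG1 region of each window, every WT BRG1 region in no KO list, and every KO region; others were named for their position beside these. The genes, windows and rules were chosen with earlier results of these data known. Alternatives were group lists, an overlap of 50%, a minimum −log10 q of 5, windows widened by 20 kb, other definitions of a call, lists of equal length, each library left out and a replicate block. No mouse annotation or genome was used, so promoters of 56 pathway genes, marker genes, likeness between promoters and sequences were left out. Python 3.11.15, NumPy 2.4.6, SciPy 1.17.1 and Matplotlib 3.10.9 were used.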

Additional observations from a re-analysis of the deposited data

How the results depend on the processing

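The 65.4% of WT BRG1 regions with a KO call depended on which KO lists counted. It was 38.5% without the KO group list, 19.2% for a peak in both KO libraries, and 27.4% between the authors' group lists. Leaving out 1 library gave 26.9% to 52.6%, with the lowest values without KO library 2 (26.9%) and KO library 1 (30.8%), where the group list is also left out by construction. Overlap of 50%, a −log10 q of 5 and widened windows gave 53.3% to 66.7%. With BRG1 library lists of equal length, which also leaves out the group list, 5 of only 7 regions were called (71.4%); these come from the strongest WT peaks, so this is not a like share. With 1 library left out, overlap of WT BRG1 with hemogen was 87.8% to 97.4% and with H3K27ac 63.3% to 92.3%, the highest without H3K27ac library 2. Overlap of hemogen with H3K27ac was then 44.6% to 71.1%, the lowest without hemogen library 2, and with WT BRG1 29.2% to 68.4%, the highest without WT BRG1 library 2. Peak-number differences, KO minus WT, turned to 0 at Epor and to 0.5 at the Stat5 genes and at Cish with BRG1 lists of equal length, the only alternative that changed a direction; the cause was not tested. Leaving out 1 library gave -18.5 to -12.5 at Bcl2l1 and -3.5 to -0.5 at Epor. At a −log10 q of 5 the Bcl2l1 difference was -9 and the Stat5 difference -1.5.

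With the replicate block, pairing KO and WT libraries by number, 16 of 87 WT peaks (18.4%) overlapped a peak of the KO library of the same number, and the sign-flip test over 2 pairs gave an exact p of 0.5 in every window, its smallest value here. Deviations of same-numbered libraries had a correlation of 0.04 across 28493 regions. The KO libraries had only 3205 and 5592 peaks, so most of these regions held no KO library peak. This value therefore cannot show whether same-numbered libraries were paired, and the sample titles link them by number only. The promoter alternatives need an annotation and were not run. The low recovered depth of the KO libraries limits what a missing peak shows.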
